A study of Mus musculus with 48 samples.

Results

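Preformed fibrils (PFF) of mouse α-synuclein were compared with monomeric α-synuclein in the substantia nigra (SN) of mice breathing 21% O2. The comparison held 23 of the 48 mice of the series, 12 with PFF and 11 with monomer, taken as every mouse labelled with either injection and with normoxia whose counts were in the authors' batch-corrected table of 42 mice. All were male C57BL/6J mice, 121 days old when either form was injected once into the right striatum (2 µl at 300 µM) under isoflurane, and they stayed in 21% O2 until the SN was taken 90 or 91 days later. Monomer mice therefore also carried the surgery and a dose of α-synuclein, and no mice without an injection were compared here. Each mouse gave 1 library from its own dissected SN, so the replicates were animals. Which side was dissected is not given in the sources used here, and the injection was on 1 side only. The labels placed the mice in 3 batches by date of harvest. Batch 1 held 4 PFF and 4 monomer mice, batch 2 held 4 and 7, and batch 3 held 4 PFF mice and no monomer mice at 21% O2.

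α-Synuclein is a presynaptic protein that is abundant in dopaminergic neurons, whose cell bodies lie in the SN and whose axons end in the striatum. Fibrils taken up in the striatum can seed the aggregation of the neuron's own α-synuclein back to the cell body, which monomer does much less. Misfolded protein in the cytosol is handled by heat shock proteins, whose genes are switched on by the transcription factor HSF1, and in the endoplasmic reticulum (ER) by chaperones that are induced by the unfolded protein response. The SN also holds GABAergic neurons, astrocytes, oligodendrocytes, microglia and vessels, and a bulk library sums them. In such a library, fewer cells of a type cannot be told apart from less RNA per cell.

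The libraries held 13428753 to 17120921 counts on genes. Levels are given below as TPM, each transcript's share of a library scaled by its length, from the authors' batch-corrected table unless said otherwise. The similarity of mice was described across genes from log2 counts before correction, scaled by library size. Any pair of mice of the same group correlated at 0.979 to 0.994 for PFF and at 0.968 to 0.994 for monomer. The tissue label was checked with markers. *Th*, the rate-limiting enzyme of dopamine synthesis, lay between 96.1 and 954 TPM (median 651) in PFF mice and between 131 and 991 TPM (median 656) in monomer mice. The spread of *Th* within each group was thus far wider than the distance between them. *Slc6a3*, the dopamine transporter, lay between 275 and 1932 TPM (median 1041) in PFF mice and between 335 and 1647 TPM (median 1103) in monomer mice.

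A gene was called when its Benjamini–Hochberg adjusted p over all 14839 genes tested was under 0.05 in edgeR's quasi-likelihood test and its absolute log2 fold change (PFF over monomer) was above 0.25. The called genes were 549, which is 3.7% of those tested, 340 of them higher with PFF (2.29%) and 209 lower (1.41%). The adjusted p alone was passed by 1127 (7.59%), an unadjusted p under 0.05 by 3317 (22.4%), and DESeq2 called 524 (3.53%). Most changes were small. The median absolute log2 fold change was 0.403 among genes called higher and 0.347 among those called lower, and 10 and 7 genes passed a change of 1 on the log2 scale. Genes called higher were scarce transcripts, with a median of 5.17 TPM against 12.9 TPM for those called lower and 23.1 TPM for all genes tested. They also spanned less of the genome, at a median of 15643 bases from start to end against 16040 and 25072. In 6 genes (0.0404% of those tested) no PFF mouse overlapped a monomer mouse. *Ccdc117*, *Dnajb1*, *Dedd2* and *Foxk2* were lower in every PFF mouse, *Foxk2* with a change too small to be called (log2 fold change -0.17, SE 0.0377, edgeR adjusted p = 0.00386), and *Lrrc29* and *Fzd5* were higher.

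The 2 batches that held both groups gave independent estimates from counts before the authors' correction. Of the 549 called genes, some of which were not tested in both, 467 had the same sign in both. With an unadjusted p under 0.05 in each batch as well, 115 did so (76 higher and 39 lower). Over all genes tested in both batches, 7717 of 14391 had the same sign in both. Of the 14391, 291 (2.02%) had it with an unadjusted p under 0.05 in each batch, and 111 had that p in both batches with opposite signs. The called genes were chosen on the same mice, so this is a description. Counts before correction, fitted for the 42 mice with batch as a covariate, called 478 genes (3.23%), of which 445 were among the 549. With only the compared mice in such a fit, 236 genes were called in all 23 (1.63%). In the 19 of batches 1 and 2, 263 were called (1.81%), 238 of them among the 549. Among the 23, batch 3 held PFF mice only, so its batch term absorbed them. They could not inform the PFF over monomer change, and the fit of 23 is no separate check on that of 19. In the fit of 42 mice, they counted only by way of other mice of batch 3, outside the 23. Without the 4 PFF mice of batch 3, the corrected counts called 298 genes, of which 285 were among the 549, and 325 genes were called in each of the 23 fits that left out 1 mouse.

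Heat shock genes were lower with PFF. Of 29 genes known to be induced by HSF1 that were tested, 9 were called lower and 0 higher, and 28 lay below 0. Their median log2 fold change was -0.14, beside 0.00085 over all genes tested, and it was -0.082 within batch 1 and -0.23 within batch 2. Summed over the list, levels overlapped, at 10051 to 11702 TPM (median 10646) in PFF mice and 10403 to 13477 TPM (median 11989.9) in monomer mice.

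*Hspa1a* (ENSMUSG00000091971.3, chromosome 17 from 34969190 to 34972156 of GRCm38), an inducible HSP70 that refolds or holds misfolded protein, lay between 9.3 and 39.1 TPM (median 16.9) in PFF mice and between 19 and 106 TPM (median 55.4) in monomer mice (log2 fold change -1.60, SE 0.221, edgeR adjusted p = 6.6e-06). The groups overlapped, but 7 of the 12 PFF mice lay below the lowest monomer mouse. Before correction, *Hspa1a* was at 18.2 to 51.7 TPM in the PFF mice of batch 1 against 41.6 to 157 in its monomer mice, and at 13 to 36.1 against 33.8 to 81.4 in batch 2. *Hspa1b*, its neighbour, had a log2 fold change of -2.39, SE 0.351 (edgeR adjusted p = 2.18e-05), the largest fall among called genes with a mean of at least 1 TPM. The 2 genes are nearly identical, so how reads were split between them is uncertain.

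*Dnajb1* (ENSMUSG00000005483.10, chromosome 8 from 83608193 to 83612653 of GRCm38) encodes an HSP40 that hands substrates to HSP70. It was at 76.8 to 106 TPM before correction in PFF mice and 109.7 to 187.8 in monomer mice of batch 1, at 67.9 to 96.5 and 110.2 to 156 in batch 2, and at 70.8 to 85 in the PFF mice of batch 3. In batches 1 and 2, no PFF mouse reached the lowest monomer mouse of its own batch. *Hsph1*, the HSP110 that resets HSP70 by exchanging its nucleotide, lay between 118 and 172.2 TPM (median 147) in PFF mice and between 162.2 and 268 TPM (median 207.9) in monomer mice (log2 fold change -0.48, SE 0.0666, edgeR adjusted p = 7.52e-06), and 9 PFF mice were below all monomer mice. *Hspb1*, a small heat shock protein that binds unfolding clients, lay between 10.5 and 41.5 TPM (median 19.9) in PFF mice and between 24.7 and 46.5 TPM (median 40.4) in monomer mice (log2 fold change -0.84, SE 0.17, edgeR adjusted p = 0.00143). Of the 12 PFF mice 9 were below every monomer mouse.

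The other called members were *Ahsa2*, an activator of the HSP90 ATPase (-0.62, SE 0.0739), *Chordc1*, an HSP90 co-chaperone (-0.34, SE 0.0606), *Dnaja4*, another HSP40 (-0.31, SE 0.0508), and *Bag3*, which links HSP70 to small heat shock proteins (-0.28, SE 0.0876). *Bag3* was the least stable of them, being called in 11 of the 23 fits without 1 mouse. *Hsf1* itself was not called (-0.081, edgeR adjusted p = 0.328). The constitutive chaperones *Hspa8* (-0.14, edgeR adjusted p = 0.0304) and *Hsp90ab1* (-0.19, edgeR adjusted p = 0.00759) passed the adjusted p but not the fold. Among chaperonin, prefoldin and HSP90 co-chaperone genes that are not part of that response, 0 of 27 were called in edgeR or DESeq2 (7 at an unadjusted p under 0.05), and their median was -0.012.

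HSF1 binds DNA at repeats of a short core, GAANNTTC, which reads the same on both strands. Promoter windows, taken from RefSeq on GRCm38.p6 as 250 bases before to 50 after each annotated start, were matched by symbol for 11669 of 14834 gene symbols tested, 80.3% of those called higher and 76.1% of those called lower. The core was in 5.84% of all windows (874 of 14960), in 5.03% of those of genes called higher and in 12.3% of those of genes called lower (25 windows of 23 genes). In the heat shock list it was in 39.4% (13 of 33), and without that list the genes called lower held it in 8.9% (17 windows). The windows of *Dnajb1* and *Dedd2* held no match, and a match or its absence says nothing of binding. The 250 bases before the start are shown for 3 heat shock genes called lower, with the core in capitals, followed by 2 called genes outside the list that hold it, *Fosl2* and *Depp1* (all 5′ to 3′ on the strand of the gene). The core began 104 bases before the start in *Hspa1a* (chr17:34972157-34972406, minus strand), 117 and 97 bases before it in *Hspb1* (chr5:135887669-135887918, plus strand), 90 and 52 in *Dnaja4* (chr9:54699309-54699558, plus strand), 244 in *Fosl2* (chr5:32136222-32136471, plus strand) and 94 in *Depp1* (chr6:116650434-116650683, plus strand).
Hspa1a: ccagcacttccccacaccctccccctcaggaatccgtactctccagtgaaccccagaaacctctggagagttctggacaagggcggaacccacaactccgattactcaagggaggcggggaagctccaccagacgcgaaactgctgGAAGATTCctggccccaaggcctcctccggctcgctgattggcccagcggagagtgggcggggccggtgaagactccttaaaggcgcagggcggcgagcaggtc
Hspb1: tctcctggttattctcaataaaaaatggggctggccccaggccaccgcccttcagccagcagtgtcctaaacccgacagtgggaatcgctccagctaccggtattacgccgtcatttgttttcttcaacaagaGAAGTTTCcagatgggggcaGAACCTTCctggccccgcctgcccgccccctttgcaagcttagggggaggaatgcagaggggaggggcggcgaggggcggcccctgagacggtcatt
Dnaja4: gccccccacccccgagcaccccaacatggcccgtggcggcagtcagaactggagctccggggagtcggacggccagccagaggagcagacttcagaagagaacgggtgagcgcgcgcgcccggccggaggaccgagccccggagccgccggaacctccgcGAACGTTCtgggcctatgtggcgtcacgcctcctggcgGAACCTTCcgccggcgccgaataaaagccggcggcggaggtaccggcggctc
Fosl2: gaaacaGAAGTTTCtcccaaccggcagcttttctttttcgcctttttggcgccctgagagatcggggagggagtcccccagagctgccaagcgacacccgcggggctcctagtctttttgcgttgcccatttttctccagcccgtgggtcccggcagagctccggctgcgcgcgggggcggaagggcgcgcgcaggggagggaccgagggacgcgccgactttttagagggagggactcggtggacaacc
Depp1: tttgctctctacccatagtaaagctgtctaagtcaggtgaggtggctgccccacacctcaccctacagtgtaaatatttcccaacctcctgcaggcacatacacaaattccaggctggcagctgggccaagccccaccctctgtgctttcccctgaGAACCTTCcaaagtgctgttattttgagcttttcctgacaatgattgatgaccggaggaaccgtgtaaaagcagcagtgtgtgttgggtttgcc

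**Figure D1:**
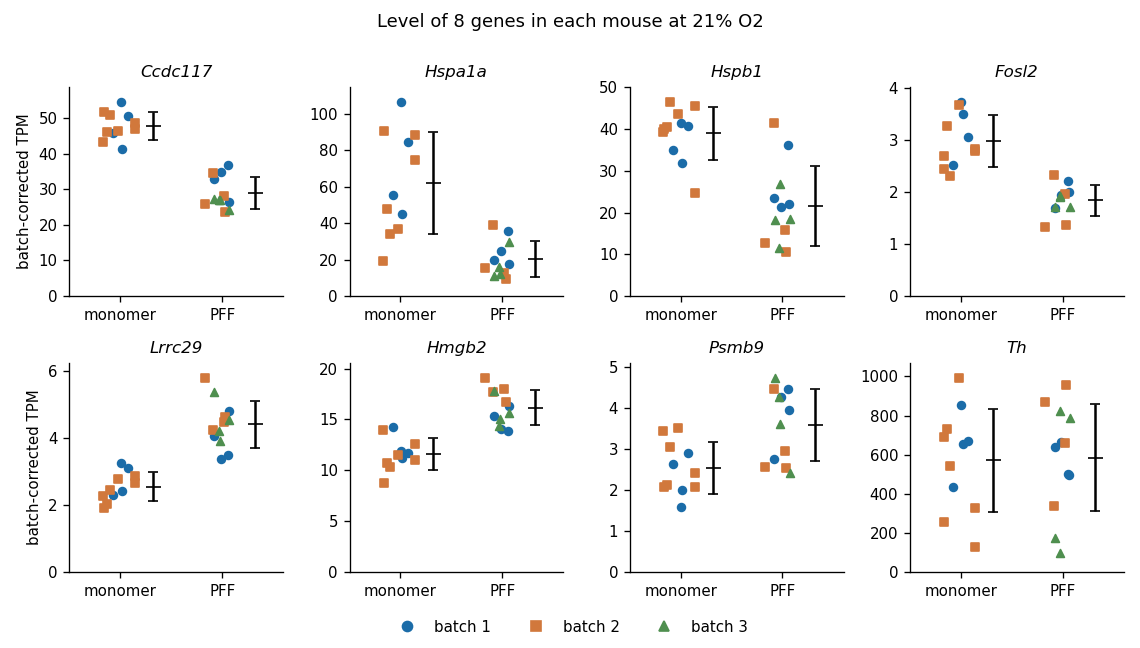
Level of 8 genes in each of the 23 mice, in batch-corrected TPM on a linear axis from 0. Points are mice, marked by batch, and the bar beside each group is the mean ± SD of 11 monomer or 12 PFF mice. The groups do not overlap in *Ccdc117* and *Lrrc29*, overlap in a few mice in *Hspb1* and *Fosl2*, and cover the same range in *Th*.

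ER chaperones were lower with PFF in the fit of all mice, but the batches went apart. Of 24 genes of the ER chaperone and unfolded protein response list, 8 were called lower and 0 higher (median -0.16). The median was 0.027 within batch 1 and -0.30 within batch 2, with 16 of 24 members above 0 in batch 1 and 0 of 24 in batch 2. *Hspa5*, the ER HSP70 known as BiP, was at 237 to 346 TPM before correction in PFF and 258 to 330.3 in monomer mice of batch 1, and the 2 ranges overlapped. In batch 2 it was at 231 to 245 in PFF and 303 to 458 in monomer mice, with no overlap, and the PFF mice of batch 3 were at 190.3 to 280.4. The highest levels were thus those of monomer mice of batch 2.

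*Creld2*, an ER protein with disulfide isomerase activity, was highest in the same mice, with 41.5 to 89.1 TPM in the monomer mice of batch 2 and 41.2 to 54.9 in those of batch 1, beside 36.2 to 58.4, 32.7 to 42.1 and 40.9 to 52 in the PFF mice of the 3 batches. *Xbp1*, the transcription factor of the response, changed by -0.35, SE 0.0679, *Sdf2l1*, a BiP cofactor, by -0.59, SE 0.127, *Manf*, a secreted ER factor that protects dopaminergic neurons, by -0.33, SE 0.079, and *Hyou1*, the large ER chaperone, by -0.28, SE 0.0666. The protein disulfide isomerases *Pdia4* (-0.31) and *Pdia6* (-0.27) were the remaining 2. For 6 members (*Hspa5*, *Sdf2l1*, *Manf*, *Pdia4*, *Pdia3* and *Dnajc3*) the difference between batches was itself called. *Cdnf*, the paralogue of *Manf*, was higher (log2 fold change 0.45, SE 0.105, edgeR adjusted p = 0.00681). In the ATF4 arm of stress signalling, 1 of 25 genes was called (*Ddit4*, lower), with a median of 0.013.

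**Figure D2:**
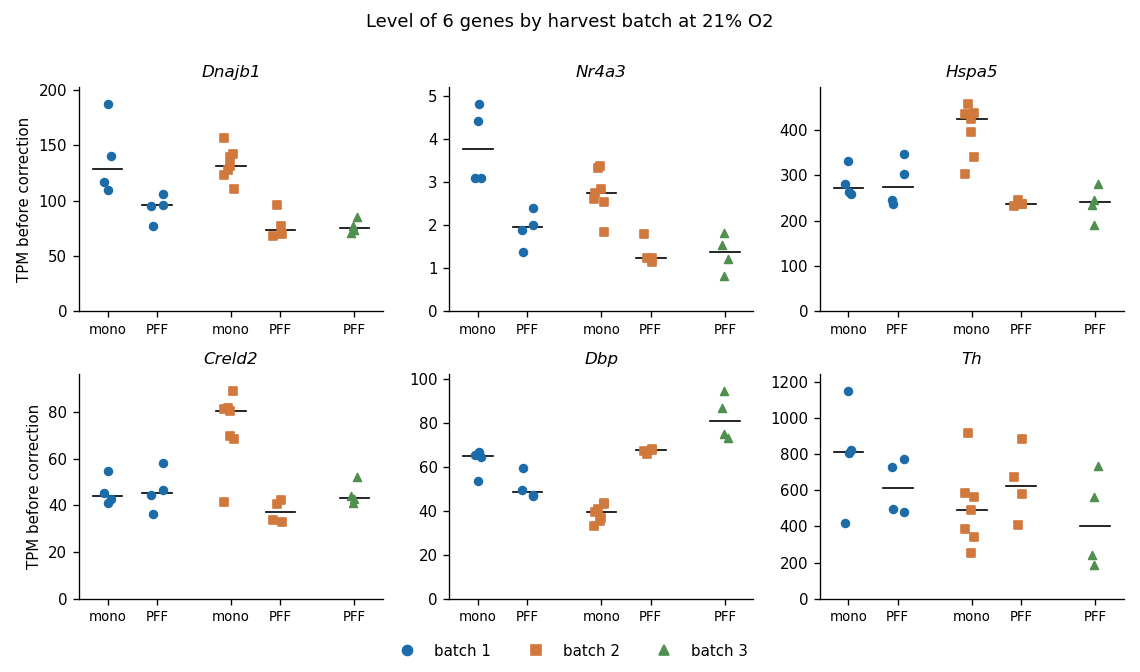
Level of 6 genes in the same mice before batch correction, in TPM on a linear axis from 0, split by harvest batch and injection. Points are mice and lines are group medians. *Dnajb1* and *Nr4a3* are lower with PFF in both batches, *Hspa5* and *Creld2* differ mainly in batch 2, where the monomer mice are high, *Dbp* turns from lower with PFF in batch 1 to higher in batch 2, and *Th* overlaps throughout.

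Immediate early genes, which neurons transcribe within minutes of activity, were lower in part. Of 27 tested, 6 were called lower and 0 higher, with a median of -0.11 that was -0.33 within batch 1 and -0.063 within batch 2. *Nr4a3*, an orphan nuclear receptor, was at 1.37 to 2.41 TPM before correction in PFF mice and 3.09 to 4.83 in monomer mice of batch 1, and at 1.14 to 1.8 and 1.84 to 3.37 in batch 2. Its groups did not overlap within either batch (log2 fold change -0.94, SE 0.143, edgeR adjusted p = 3.84e-05). *Fosl2*, an AP-1 subunit, lay between 1.32 and 2.32 TPM (median 1.91) in PFF mice and between 2.3 and 3.73 TPM (median 2.83) in monomer mice (log2 fold change -0.68, SE 0.112, edgeR adjusted p = 0.000131), and 11 of 12 PFF mice were below every monomer mouse. *Egr4*, a zinc finger factor of the EGR family, lay between 0.391 and 1.37 TPM (median 0.805) in PFF mice and between 1.26 and 2.71 TPM (median 1.64) in monomer mice (log2 fold change -1.08, SE 0.194, edgeR adjusted p = 0.000359), with 11 PFF mice below all monomer mice.

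*Egr3* (-0.62, SE 0.19), *Nr4a1* (-0.32, SE 0.101) and *Homer1*, a postsynaptic scaffold gene with an activity-induced short form (-0.27, SE 0.0558), were the other 3. The best known members were not called. *Fos* lay between 5.23 and 26.4 TPM (median 15.2) in PFF mice and between 13.2 and 35 TPM (median 20.5) in monomer mice (log2 fold change -0.57, SE 0.224, edgeR adjusted p = 0.115), and its log2 fold change was -1.13 within batch 1 and -0.56 within batch 2. *Arc* had -0.12, edgeR adjusted p = 0.457 and *Npas4* -0.043, edgeR adjusted p = 0.868. Constitutive neuronal genes gave few calls. Of 27 synaptic vesicle genes 0 were called in edgeR or DESeq2 (5 at an unadjusted p under 0.05, 25 below 0, median -0.069). The same held for 0 of 31 glutamate and GABA receptor subunits (1 at an unadjusted p under 0.05, median -0.058). Of 34 voltage-gated channels 1 was called in edgeR, the potassium channel *Kcna4* (log2 fold change -0.33, SE 0.0618, edgeR adjusted p = 0.000529). In the order vesicle genes, receptor subunits and channels, the medians were -0.17, -0.14 and -0.15 within batch 1. Within batch 2 they were -0.011, -0.046 and -0.067. Vesicle genes lay above 0 in 2 of 27 cases in batch 1 and in 13 of 27 in batch 2.

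Genes that glucocorticoids induce were lower in part. In a list of 20 that included the metallothioneins, 8 were called lower and 1 higher, 7 lay above 0, and the median was -0.27, but -0.10 within batch 1 and -0.11 within batch 2. *Sgk1*, a kinase of ion transport, lay between 14.6 and 99.6 TPM (median 48.4) in PFF mice and between 38.4 and 194 TPM (median 119.9) in monomer mice (log2 fold change -0.99, SE 0.26, edgeR adjusted p = 0.0133), and its log2 fold change was -1.48 within batch 1 and -0.82 within batch 2. *Ddit4*, an inhibitor of mTORC1 that is also a HIF target, was at 128 to 143 TPM before correction in PFF mice and 191.9 to 216 in monomer mice of batch 1, a gap with no overlap, whereas the ranges in batch 2 were 98.1 to 207.3 and 125 to 178.8. *Errfi1*, a feedback inhibitor of the EGF receptor, lay between 35.4 and 52.9 TPM (median 37.2) in PFF mice and between 44.6 and 61.3 TPM (median 51.5) in monomer mice (log2 fold change -0.39, SE 0.0563, edgeR adjusted p = 1.7e-05).

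*Tsc22d3*, which encodes GILZ (-0.28, SE 0.0643), *Cdkn1a*, the cell cycle inhibitor p21 (-0.42, SE 0.121), *Nfkbia*, the inhibitor of NF-κB (-0.36, SE 0.113), *Per1* (-0.33, SE 0.0907) and *Arrdc2* (-0.33, SE 0.102) completed the genes called lower. *Fkbp5*, a usual marker of glucocorticoid action, was not called (-0.10, edgeR adjusted p = 0.257). The metallothionein *Mt2* was the 1 member called higher (log2 fold change 0.40, SE 0.128, edgeR adjusted p = 0.0444), in 9 of 23 fits without 1 mouse.

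Outside these lists, the smallest p among genes called lower belonged to *Ccdc117* (ENSMUSG00000020482.4, chromosome 11 from 5528887 to 5542187 of GRCm38), a coiled-coil protein gene. Before correction it was at 26.1 to 34.9, 20.1 to 29.7 and 22.3 to 24.9 TPM in the PFF mice of batches 1, 2 and 3, and at 41.1 to 52.2 and 37.2 to 44.6 TPM in the monomer mice of batches 1 and 2. Each PFF mouse lay below each monomer mouse of any batch. *Dedd2*, a nuclear death effector domain protein, lay between 15.5 and 20.1 TPM (median 17.5) in PFF mice and between 20.8 and 31.5 TPM (median 24.4) in monomer mice (log2 fold change -0.46, SE 0.0511, edgeR adjusted p = 8.46e-08). *Arid5b*, a DNA-binding coregulator, changed by -0.60, SE 0.0704, and *Josd1*, a deubiquitinase, by -0.34, SE 0.0471. Both had an unadjusted p under 0.05 in each batch. *Slc5a3*, the inositol transporter that is induced by osmotic stress, changed by -0.57, SE 0.0736, but more in batch 2 (-0.74) than in batch 1 (-0.23).

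*P4ha1*, a catalytic subunit of collagen prolyl hydroxylase and a HIF target, lay between 38.9 and 73.6 TPM (median 49.3) in PFF mice and between 58.9 and 103 TPM (median 86) in monomer mice (log2 fold change -0.69, SE 0.0857, edgeR adjusted p = 6.61e-07), and 10 of 12 PFF mice were below all monomer mice. Its log2 fold change was -0.14 within batch 1 and -0.94 within batch 2. *P4ha2*, its paralogue, changed by -0.44, SE 0.0709. Of 37 HIF targets 4 were called lower and 0 higher (the 2 others were *Ddit4* and *Ak4*, -0.25), with a median of -0.049, and no call fell among 32 genes of glycolysis and lactate in edgeR or DESeq2 (3 at an unadjusted p under 0.05, median 0.0027). *Serpinh1*, the collagen chaperone HSP47, was lower (log2 fold change -0.36, SE 0.116, edgeR adjusted p = 0.0445), while 0 of 27 collagen and basement membrane genes were called in either tool or had an unadjusted p under 0.05.

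The largest falls among genes with a mean of at least 1 TPM were, after *Hspa1b* and *Hspa1a*, those of *Depp1*, *Tnfrsf25*, *Ptp4a1* and *Egr4*. *Depp1*, a FOXO-induced gene, lay between 0.362 and 2.06 TPM (median 1.14) in PFF mice and between 1.23 and 5.08 TPM (median 3.16) in monomer mice (log2 fold change -1.33, SE 0.385, edgeR adjusted p = 0.0264). *Tnfrsf25*, the death receptor DR3, changed by -1.13, SE 0.205 over all mice, with -0.062 within batch 1 and -1.74 within batch 2. *Ptp4a1*, a phosphatase, changed by -1.11, SE 0.347, and it was called in 12 of 23 fits without 1 mouse.

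Among genes called higher, *Lrrc29* (ENSMUSG00000041679.9, chromosome 8 from 105312265 to 105326278 of GRCm38), a gene of an F-box protein with leucine-rich repeats, had the smallest p (log2 fold change 0.81, SE 0.0998, edgeR adjusted p = 6.61e-07). It lay between 3.39 and 5.8 TPM (median 4.37) in PFF mice and between 1.92 and 3.25 TPM (median 2.46) in monomer mice, with no overlap. *Hmgb2*, a chromatin protein that bends DNA, lay between 13.9 and 19.1 TPM (median 16) in PFF mice and between 8.76 and 14.3 TPM (median 11.5) in monomer mice (log2 fold change 0.49, SE 0.0769, edgeR adjusted p = 5.97e-05), and 10 PFF mice were above all monomer mice. *Tet2*, which oxidises methylcytosine, changed by 0.33, SE 0.0511, *Alkbh3*, an alkylation damage demethylase, by 0.42, SE 0.0645, and *Hnrnpdl*, an RNA-binding protein that regulates splicing, by 0.26, SE 0.0412. All 3 had an unadjusted p under 0.05 in each batch. *Hnrnpdl* stood near the fold threshold and was called in 17 of 23 fits without 1 mouse.

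*Tceanc* (0.59, SE 0.0812), *Ankrd16* (0.32, SE 0.0479), *Ccdc9b* (0.33, SE 0.0551), *4931406C07Rik* (0.31, SE 0.0494) and the zinc finger gene *Zfp867* (0.42, SE 0.0627) followed, each with an unadjusted p under 0.05 in both batches, and the nuclear envelope gene *Nemp2* (0.48, SE 0.0788) reached it in batch 2. Of 366 zinc finger genes named Zfp, 9 were called higher and 9 lower. *Fzd5*, a Wnt receptor, lay between 1.82 and 2.81 TPM (median 2.17) in PFF mice and between 1.15 and 1.76 TPM (median 1.61) in monomer mice (log2 fold change 0.57, SE 0.106, edgeR adjusted p = 0.000578). *Gli1*, the transcription factor and target of hedgehog signalling, was higher (log2 fold change 0.52, SE 0.101, edgeR adjusted p = 0.001), as was *Trpv4*, a cation channel (log2 fold change 0.71, SE 0.16, edgeR adjusted p = 0.00396). These 2 were picked after their values were seen.

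*Gm17660*, *Tac2*, *Jchain*, *Pdcd1*, *Ccl3* and *Opn4* had the largest rises at a mean of at least 1 TPM. *Gm17660*, a predicted gene, lay between 3.11 and 8.3 TPM (median 5.36) in PFF mice and between 0.438 and 3.59 TPM (median 1.98) in monomer mice (log2 fold change 1.52, SE 0.246, edgeR adjusted p = 0.000101). *Opn4*, the photopigment melanopsin, lay between 1.49 and 3.71 TPM (median 3.04) in PFF mice and between 0.832 and 2.17 TPM (median 1.41) in monomer mice (log2 fold change 0.97, SE 0.167, edgeR adjusted p = 0.000237), with 0.33 within batch 1 and 1.31 within batch 2. *Tac2*, the neurokinin B precursor of a few neuron groups, lay between 0 and 11.2 TPM (median 2.23) in PFF mice and between 0.179 and 2.67 TPM (median 0.81) in monomer mice (log2 fold change 1.92, SE 0.554, edgeR adjusted p = 0.0264). Its rise was lost without PFF replicate 6 (adjusted p = 0.0640 in edgeR) or replicate 9 (0.0573), and in counts before correction with batch as a covariate (0.154). *Jchain*, which joins antibody subunits, was lost without PFF replicate 8 (log2 fold change 0.76, edgeR adjusted p = 0.0595).

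*Cirbp* and *Rbm3*, RNA-binding proteins that rise in mild cold, were called higher and were the only 2 of 20 genes called in a list of them with CLK kinases and splicing factors (median 0.022). In that list 9 of 20 had an unadjusted p under 0.05. The list median was 0.12 within batch 1 (19 of 20 above 0) and -0.054 within batch 2 (8 of 20 above 0). *Cirbp* (ENSMUSG00000045193.13, chromosome 10 from 80165985 to 80172786 of GRCm38) was at 120.2 to 144 TPM before correction in PFF and 108 to 136 in monomer mice of batch 1, which overlapped, at 160.4 to 184.9 and 74.2 to 108 in batch 2, which did not, and at 176 to 205.3 in batch 3. *Rbm3* lay between 87 and 119 TPM (median 101) in PFF mice and between 69.1 and 93 TPM (median 81.2) in monomer mice (log2 fold change 0.31, SE 0.0553, edgeR adjusted p = 0.000359), with 0.16 within batch 1 and 0.38 within batch 2. A promoter window of *Cirbp* (chr10:80167589-80167838, plus strand, the 250 bases before the start) held the mild cold element TCCCCGCC, shown in capitals, 247 bases before the start. On either strand that element was in 9.31% of all windows, in 9.12% of those of genes called higher and in 9.85% of those of genes called lower. In the heat shock list, whose genes were mostly lower with PFF, it was in 24.2% (8 of 33).
Cirbp: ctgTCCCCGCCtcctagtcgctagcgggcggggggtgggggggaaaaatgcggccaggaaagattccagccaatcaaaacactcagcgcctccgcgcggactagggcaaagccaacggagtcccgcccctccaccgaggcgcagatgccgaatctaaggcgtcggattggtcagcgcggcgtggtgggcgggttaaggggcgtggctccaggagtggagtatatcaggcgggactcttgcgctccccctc

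Clock genes moved in both directions. Of 23 tested, 3 were called higher (*Ciart*, *Dbp* and *Per3*) and 3 lower (*Arntl*, *Nfil3* and *Per1*), and the median was -0.021. *Dbp*, an output gene driven by the CLOCK and BMAL1 pair, was at 46.6 to 59.5 TPM before correction in PFF and 53.5 to 66.9 in monomer mice of batch 1. In batch 2 it was at 65.6 to 67.9 and 32.9 to 43.5, and at 73 to 94.5 in batch 3. The order of the groups was thus reversed between batches, with -0.28 within batch 1 and 0.80 within batch 2. *Ciart*, a repressor of that pair, had -0.072 within batch 1 and 0.61 within batch 2, and *Arntl*, which encodes BMAL1, had 0.025 within batch 1 and -0.40 within batch 2. *Per3* had 0.14 within batch 1 and 0.22 within batch 2 and *Nfil3*, a repressor that competes with DBP, -0.34 within batch 1 and -0.29 within batch 2. The E-box CACGTG, bound by CLOCK and BMAL1, was in 9.37% of all windows, 5.97% of those of genes called higher and 8.37% of those of genes called lower.

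Antigen presentation genes were higher with PFF. Of 21 tested, 5 were called higher and 0 lower, 20 lay above 0, and the median of 0.31 was 0.27 within batch 1 and 0.24 within batch 2. *Psmb9*, a subunit of the immunoproteasome that cuts peptides for MHC class I, lay between 2.42 and 4.73 TPM (median 3.79) in PFF mice and between 1.59 and 3.53 TPM (median 2.43) in monomer mice (log2 fold change 0.51, SE 0.143, edgeR adjusted p = 0.021), and 7 PFF mice were above all monomer mice. *Tap1*, the peptide transporter into the ER, lay between 4.37 and 6.69 TPM (median 5.15) in PFF mice and between 2.66 and 6.17 TPM (median 3.9) in monomer mice (log2 fold change 0.38, SE 0.104, edgeR adjusted p = 0.0188). *H2-T23*, a class I-like molecule, changed by 0.27, SE 0.081, *H2-DMa*, which loads class II, by 0.27, SE 0.0672, and *Psmb8*, the other immunoproteasome subunit, by 0.37, SE 0.116 (called in 10 of 23 fits without 1 mouse). The other proteasome genes did not share the calls, with *Psmb8* and *Psmb9* being the 2 called of 38.

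Interferon-stimulated genes lay above 0 in 28 of 30 cases (median 0.19), but only *Xaf1*, a proapoptotic interferon target, was called (log2 fold change 0.28, SE 0.0693, edgeR adjusted p = 0.0102), and the median was 0.42 within batch 1 and -0.027 within batch 2. Homeostatic microglia genes gave 0 calls of 23 in edgeR and DESeq2 (3 at an unadjusted p under 0.05), with a median of 0.34 within batch 1 and -0.0059 within batch 2. Disease-associated microglia genes had a median of 0.17, and 2 of 23 were called. *Ccl3*, a chemokine, lay between 3.15 and 10.4 TPM (median 4.58) in PFF mice and between 1.14 and 5.8 TPM (median 2.5) in monomer mice (log2 fold change 1.01, SE 0.234, edgeR adjusted p = 0.00546). *Cd52*, a surface glycopeptide of leukocytes, lay between 9.24 and 20.1 TPM (median 12.1) in PFF mice and between 5.42 and 14.4 TPM (median 7.62) in monomer mice (log2 fold change 0.61, SE 0.155, edgeR adjusted p = 0.0114). Summed homeostatic microglia levels overlapped, at 3347 to 5564 TPM (median 4791) in PFF mice and 3135 to 5238 TPM (median 4300.0) in monomer mice, and their part in the antigen presentation and interferon values was not tested. Among 20 complement genes *Cd46*, a complement regulator, was called (log2 fold change 0.47, SE 0.0958, edgeR adjusted p = 0.00156, 0.092 within batch 1 and 0.78 within batch 2).

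**Figure D3:**
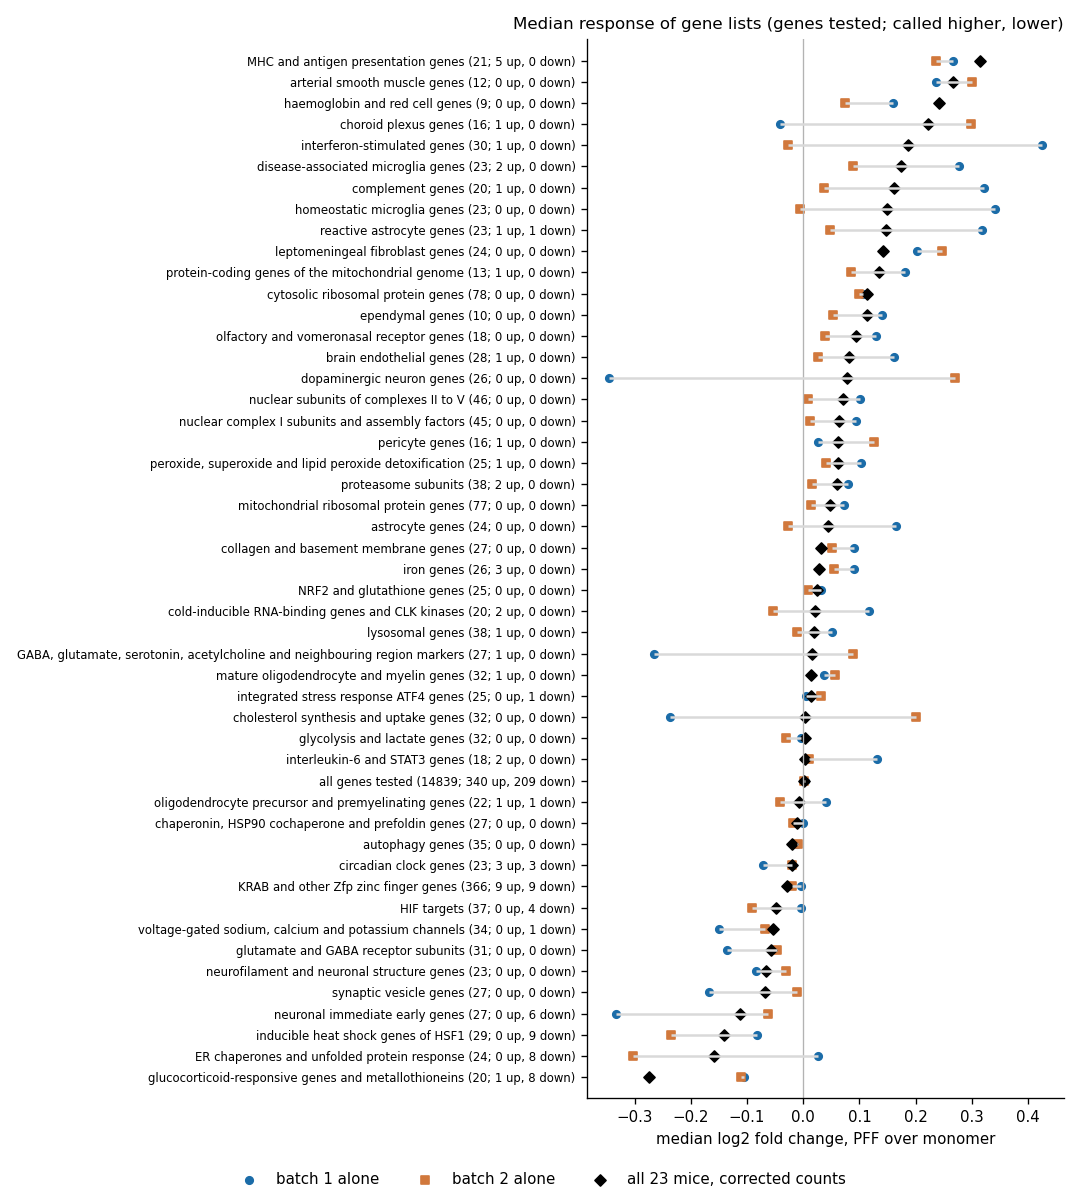
Median log2 fold change, PFF over monomer, of gene lists with at least 9 genes tested. Diamonds are all 23 mice in the corrected counts, circles batch 1 and squares batch 2 before correction, and the brackets give the genes tested and called. Antigen presentation genes lie to the right and heat shock genes to the left in both batches, whereas ER chaperone, dopaminergic and cholesterol genes change sides.

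Dopaminergic neuron genes gave 0 calls of 26 in edgeR and DESeq2 and 0 with an unadjusted p under 0.05, with 19 above 0 and a median of 0.077. The median was -0.35 within batch 1 and 0.27 within batch 2, and 1 of 26 lay above 0 in batch 1 against 23 of 26 in batch 2. The summed level ran over the same range in both groups, at 1823 to 7522 TPM (median 4821) in PFF mice and 1713 to 7559 TPM (median 5008) in monomer mice. *Th* was not called (log2 fold change 0.051, SE 0.314, edgeR adjusted p = 0.952), and its sign turned in several other fits. Markers of neighbouring regions and transmitter types differed little in median (0.016), but they were -0.26 within batch 1 and 0.089 within batch 2, in the same directions as the dopaminergic genes, and their part in the other results was not tested.

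Genes of iron handling gave 3 calls of 26, all higher. *Tfrc*, the transferrin receptor that imports iron, was above all monomer mice in 10 of 12 PFF mice, and its lowest, median and highest values were 57.8, 69.9 and 88.3 TPM with PFF and 43.9, 56.4 and 60.2 TPM with monomer. *Hfe*, a partner of the transferrin receptor, changed by 0.26, SE 0.0782, and *Hamp2*, a hepcidin gene, by 0.46, SE 0.144. They were called in 16 and 13 of 23 fits without 1 mouse. *Slc40a1*, the iron exporter ferroportin, was not called (log2 fold change 0.14, SE 0.0973, edgeR adjusted p = 0.41). Lipid peroxide and superoxide detoxification genes gave 1 call of 25 (*Tfrc*, which the list also held), and NRF2 and glutathione genes 0 of 25 in edgeR and DESeq2 (4 at an unadjusted p under 0.05).

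Cytosolic ribosomal protein genes lay above 0 in all 78 cases tested. In edgeR and DESeq2 0 were called and 55 had an unadjusted p under 0.05, and the median of 0.11 was 0.11 within batch 1 and 0.099 within batch 2. Their summed level was 25327 to 28894 TPM (median 27134) in PFF mice and 24375 to 27499 TPM (median 25608) in monomer mice, so the groups overlapped. The 13 protein-coding genes of the mitochondrial genome also all lay above 0 (median 0.14), and *mt-Atp8*, a subunit of ATP synthase, was called (log2 fold change 0.29, SE 0.0619, edgeR adjusted p = 0.00235). Nuclear subunits and assembly factors of complex I had a median of 0.063, and nuclear subunits of complexes II to V one of 0.070. They gave 0 calls of 45 and 46 in both tools, with 15 and 16 at an unadjusted p under 0.05. Their medians were 0.093 and 0.10 within batch 1. Within batch 2 they were near 0, at 0.012 (26 of 45 above 0) and 0.0086 (28 of 46). Expressed as log2 TPM instead, the median over all genes was -0.015, and the ribosomal and mitochondrial medians stayed above 0, at 0.095 and 0.12.

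Each of the glial and vascular lists below had at most 1 gene called higher and at most 1 called lower. Over all genes tested, 3.7% were called. *Opalin*, a myelin membrane protein, was the 1 call of 32 oligodendrocyte genes (log2 fold change 0.60, SE 0.104, edgeR adjusted p = 0.000259), and of 22 precursor and premyelinating genes *Gpr17*, a receptor of premyelinating cells, was lower (log2 fold change -0.43, SE 0.0862, edgeR adjusted p = 0.00143) and *Rnf43*, a ubiquitin ligase of Wnt receptors, higher (log2 fold change 0.28, SE 0.0866, edgeR adjusted p = 0.0348). The changes of *Opalin* and *Gpr17* stood in batch 2, at 0.93 and -0.64, beside 0.049 and 0.069 in batch 1. Of 24 astrocyte genes 0 were called in either tool (1 at an unadjusted p under 0.05, median 0.045). Reactive astrocyte genes (median 0.15) gave *Hspb1* lower and the acute-phase gene *Serpina3n* higher of 23 tested. Endothelial (1 of 28), pericyte (1 of 16), arterial smooth muscle (0 of 12 in either tool, 3 at an unadjusted p under 0.05), leptomeningeal (0 of 24, and 0 at that p) and choroid plexus (1 of 16) genes had medians of 0.082, 0.062, 0.27, 0.14 and 0.22. In the same order, those medians were 0.16, 0.027, 0.24, 0.20 and -0.042 within batch 1. Within batch 2 they were 0.027, 0.13, 0.30, 0.25 and 0.30. The astrocyte median was 0.17 within batch 1 and -0.027 within batch 2, and the reactive astrocyte median 0.32 and 0.048.

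**Figure D4:**
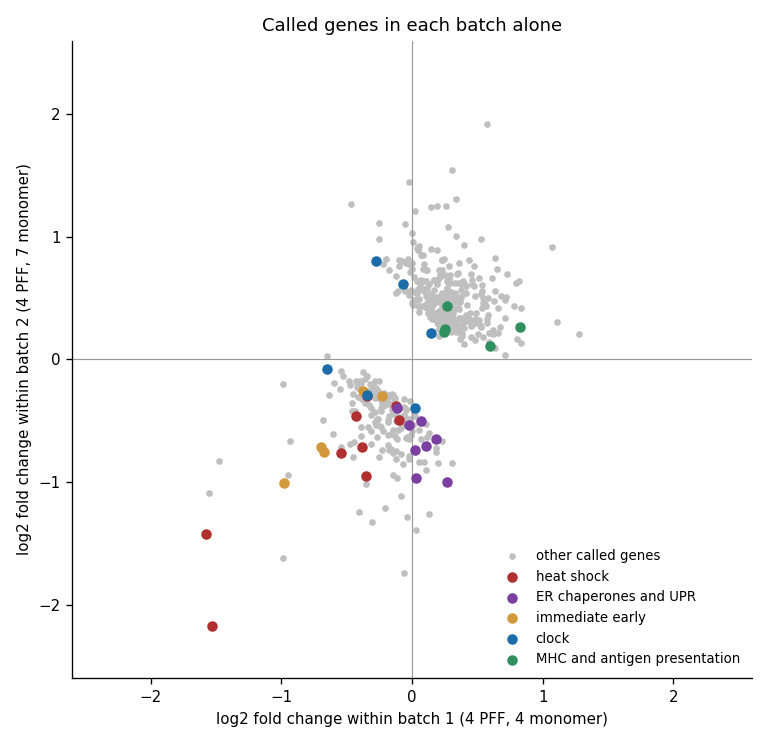
Log2 fold change within batch 1 (x axis) against batch 2 (y axis), from counts before correction, for the 521 called genes tested in both. Each point is a gene and colours mark 5 lists. Heat shock genes and immediate early genes lie in the lower left and antigen presentation genes in the upper right, while ER chaperones lie near 0 in batch 1 and below 0 in batch 2.

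Fitted alone, batch 1 called 2 genes in edgeR (0.0139% of 14430 tested), both lower with PFF, and 29 in DESeq2, and 2147 genes (14.9%) had an unadjusted p under 0.05. The 2 genes were *Ddit4* and *Gnas*, the stimulatory G protein subunit, whose locus holds other overlapping and antisense transcripts that these counts without strand cannot separate. Batch 2, with 3 more monomer mice, called 502 genes (3.43% of 14647), 261 higher (1.78%) and 241 lower (1.65%), and 2902 (19.8%) had an unadjusted p under 0.05. That number rested partly on single animals, being 224 without PFF replicate 6 and 324 without PFF replicate 7. Of the genes called in batch 2 and tested in batch 1, 311 of 493 had the same sign in batch 1, and 53 did so with an unadjusted p under 0.05, beside 7717 of 14391 with the same sign over all genes tested in both.

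The difference between the 2 batches was tested as an interaction and was called for 64 genes (0.432% of 14809). That count was unstable, at 3 to 119 without 1 mouse (3 without PFF replicate 1 and 7 without PFF replicate 2), 0 with the replicate number as a block and 234 in DESeq2. In 56 of them the fitted changes had opposite signs, higher in batch 1 and lower in batch 2 for 35 and the reverse for 21, and 21 of the 64 were also called over all mice. The smallest p were those of *Dbp*, *Tra2a*, *H3f3b*, *Fv1* and *Slc38a2*. *Slc38a2*, an amino acid transporter of the stress response, stood at -0.61 in batch 2 and -0.0082 in batch 1. *H3f3b*, a replacement histone H3 gene, was at -0.032 in batch 1 and 0.47 in batch 2. *Nr1d1*, the clock repressor REV-ERBα, *Hspa5*, *Cirbp* and the tight junction gene *Cldn5* were also in the set. Batch 3 entered none of these values.

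Genes outside the authors' protein-coding table, tested on counts before correction in the 42 mice with batch as a covariate, were mostly called higher. Of 3499 tested, 253 were called (7.23%), 219 higher (6.26%) and 34 lower (0.972%). In the same fit, 487 of 14794 genes of the protein-coding table were called (3.29%), 266 higher and 221 lower. The median log2 fold change was 0.084 outside that table and -0.011 within it. In the 19 mice of batches 1 and 2 alone, 128 genes outside that table were called. Intergenic long noncoding RNAs (lincRNAs) gave 58 higher and 2 lower of 628, antisense transcripts 46 and 4 of 704, and long noncoding RNAs from bidirectional promoters 11 and 0 of 97, whereas processed pseudogenes gave 15 and 5 of 779.

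*Gm46658*, an antisense transcript, had the smallest p of these genes and lay between 5.93 and 22.1 TPM (median 15.6) in PFF mice and between 2.53 and 6.23 TPM (median 4.36) in monomer mice before correction (log2 fold change 1.73, SE 0.168, edgeR adjusted p = 7.78e-09). It overlaps *Tmem151a* on the opposite strand, whose own log2 fold change was -0.010. The lincRNA *Gm36855* lay between 16.8 and 35.5 TPM (median 25.1) in PFF mice and between 8.57 and 17.2 TPM (median 14) in monomer mice (log2 fold change 0.92, SE 0.123, edgeR adjusted p = 6.43e-06). The groups overlapped by little in it, and only just not at all in *Mir9-3hg*, the host transcript of a miR-9 precursor, which lay between 12.19 and 20.5 TPM (median 15.3) in PFF mice and between 8.43 and 12.16 TPM (median 11.3) in monomer mice (log2 fold change 0.51, SE 0.0742, edgeR adjusted p = 2.08e-05). *2900052L18Rik* changed by 0.67 and *Gm48804*, inside *Srgap1*, by 0.66.

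Lower were the pseudogene *5830417I10Rik* (-0.33), *Gm28294* opposite *Ptprn* (-1.15), *Gm15344* on the strand of the ER chaperone gene *Hsp90b1* (-0.76), *Gm13830* (-0.51) and *Gm27353*, annotated as a miRNA gene (-0.92), each with an edgeR adjusted p of at most 0.00183. Of the 253 called genes, 122 overlapped no protein-coding gene, 81 lay opposite one and 50 lay on the same strand as one. Where the overlapping gene was tested (119), it had the same sign in 73 and passed the adjusted p in 14. Reads of overlapping genes cannot be told apart in these counts, which were made without strand.

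**Figure D5:**
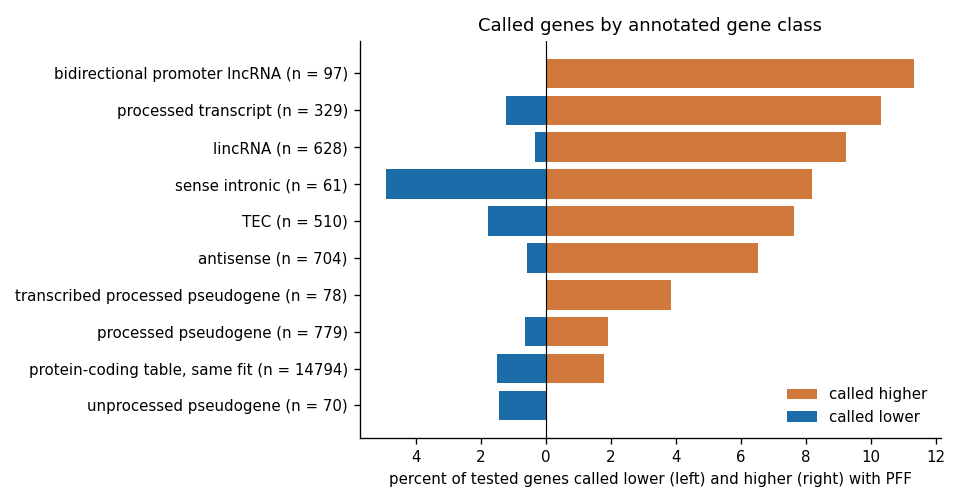
Percent of tested genes called lower (left) and higher (right) with PFF in each annotated class with at least 60 genes, from counts before correction with batch as a covariate. Bars start at 0 in both directions and n is the number of genes tested. Long noncoding classes reach 6 to 11% higher against 1.80% in the protein-coding table, while processed pseudogenes stay near it.

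The genes called at 21% O2 were looked up between PFF and monomer mice at 11% O2, which are other animals. There 33% of the 549 had the same sign, beside 46% of all 14839 genes tested, and 4 had it with an unadjusted p under 0.05. Over all genes tested, 581 (3.92%) reached that p with either sign, so this share is not on the same criterion as the 4. *Dnajb1* stood at 0.057, *Ccdc117* at 0.13 and *Nr4a3* at 0.060 on the log2 scale at 11% O2. The median of the heat shock list was 0.029 and that of the antigen presentation list 0.011. Genes of the mitochondrial genome kept their direction at 11% O2, with a median of 0.11 and 12 of 13 above 0. Cytosolic ribosomal protein genes had a median of 0.039 there, with 66 of 78 above 0. *Depp1* was among the genes that kept their direction (-0.75).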

How the data were processed

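SN poly(A) RNA of single mice was sequenced. Per the labels and the study's methods, the authors removed ribosomal reads, aligned with STAR 2.7.5a to mm10, removed duplicate reads with Picard 2.21.9, and deposited gene counts from featureCounts 2.0.1 without normalization (GENCODE vM24, 55385 genes, 48 mice, multi-mapping reads by primary alignment, no strand option). They left out 6 mice after principal components analysis, one of them at 21% O2, and deposited counts of 19601 protein-coding genes corrected for batch with ComBat-seq. The deposited TPM were computed by the authors from each count table.

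Counts were tested here with edgeR 4.0.16 in R 4.3.3 (TMM, filterByExpr by group, quasi-likelihood test). The corrected counts of all 42 mice were fitted with the 4 groups and no batch term, batches 1 and 2 were fitted alone on counts before correction, and the interaction was fitted on 19 mice. Each SE was obtained from the size of the log2 fold change and the F statistic of its test. DESeq2 1.42.0 and limma 3.58.1 were alternatives. The procedure was tested on simulated data. Depth, at least 13428753 counts per mouse, limits scarce transcripts.

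Gene lists were chosen with earlier results of these data known, as was the comparison. Named genes are the 12 per direction with the smallest p and one sign in both batches, the 6 per direction with the largest change at a mean of at least 1 TPM, 10 that passed in both batches, up to 3 per list, 5 per direction outside the protein-coding table, 5 for the batch difference, and genes the study names. Other called list members, *Fzd5*, *Foxk2*, *Cdnf*, *Serpinh1*, *Gli1*, *Trpv4*, *Gnas* and reference members of lists were named after their values were seen. Gene positions are those of GENCODE vM21 on GRCm38 (55144 of 55385 genes matched), and promoters are RefSeq's on GRCm38.p6. Some genes are not reported here.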

Additional observations from a re-analysis of the deposited data

Results flagged for a closer look

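The response to PFF differed between batches 1 and 2 for 64 genes in a test of the difference itself (edgeR, injection by batch, 19 mice), at an adjusted p under 0.05 and a difference above 0.25 on the log2 scale. The count fell to 3 without PFF replicate 1 and to 0 with the replicate number as a block, and was 234 in DESeq2. The 5 with the smallest p are given as batch 2 minus batch 1. *Dbp* differed by 1.07, SE 0.125, edgeR adjusted p = 0.000611. *Tra2a*, a splicing factor, differed by -0.66, SE 0.0889, edgeR adjusted p = 0.0028. *H3f3b* differed by 0.49, SE 0.0697, edgeR adjusted p = 0.00364. *Fv1*, a retrovirus restriction gene, differed by -0.72, SE 0.117, edgeR adjusted p = 0.0155. *Slc38a2* differed by -0.61, SE 0.10, edgeR adjusted p = 0.0155. The groups of 12 and 11 mice were too large for the test of single outlying mice.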

How the results depend on the processing

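The 549 genes called over all mice became 1127 at the adjusted p alone, 298 without the PFF mice of batch 3, and, on counts before correction with batch as a covariate, 263 in 19 mice and 236 in 23, and they ranged from 404 to 597 without each mouse in turn. Outside the protein-coding table, 253 became 128 in 19 mice and 112 in 23. In the fits of 23 mice the batch term absorbed the PFF mice of batch 3, so they are no separate check on those of 19. Batch 1 alone (2) gave 29 in DESeq2, 4 with no filter on low counts and 0 to 7 without each mouse. Batch 2 alone (502) ranged from 224 to 553 without each mouse. The 64 genes of the batch difference became 234 in DESeq2 and ranged from 3 to 119 without each mouse, moving by over 1.5 times without PFF replicate 1, 2, 5 or 6 or monomer replicate 1, 2, 3, 5, 7 or 8. With limma on log2(TPM + 1), 245 genes were called higher and 216 lower, in place of 340 and 209. The study assigned mice in matched pairs, and whether replicate numbers follow those pairs is not known here. Same-numbered mice deviated from their group means with correlations of -0.38 to 0.30. Numbers 9, 11 and 12 joined a PFF mouse of batch 3 to a monomer mouse of batch 2. Such correlations cannot settle how the mice were paired. With the number as a replicate block, 461 genes were called over all mice, 416 in batch 2, 0 in batch 1 and 0 for the batch difference. Signs turned for *Th* (-0.056 with the replicate block, -0.019 before correction with batch, -0.10 without batch, -0.014 in limma with either pseudocount or filter, and -0.056 to 0.16 without 1 mouse), *Kdr* (0.012 without the PFF mice of batch 3, 0.10 before correction without batch, -0.037 to 0.036 without 1 mouse), *Slc16a3* (-0.016 before correction without batch, -0.062 to 0.11 without 1 mouse) and *Mgp* (-0.38 with all 48 mice), none of them called. The cause was not tested.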

Other observations

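A few immunoglobulin genes were high in a single animal. Before correction, PFF replicate 8 held 296 TPM of *Igkc*, the κ light chain constant region, and the 11 other PFF mice held at most 33.8. For *Ighm*, the μ heavy chain, it held 238 TPM and the others at most 42.4. *Jchain*, which joins IgM and IgA subunits, was at 22.7 TPM in that mouse and at most 2.97 in the others, and without it the log2 fold change of *Jchain* was 0.76 (edgeR adjusted p = 0.0595) in place of 1.49. Some other genes of antibody-secreting cells were not high in it. *Mzb1* was at 1.02 TPM (up to 1.41 in the other PFF mice) and *Ighg2c* at 2.05 (up to 2.42). *Igha* was at 0.371 (up to 1.40) and *Ighg2b* at 0 (up to 0.517). *Pou2af1*, a further B cell gene, was at 1.07 TPM in that mouse, beside up to 0.391 in the other PFF mice and 0.315 in monomer mice. *Pou2af1* and the B cell markers *Ms4a1*, *Cd79a* and *Cd79b* did not pass the filter on low counts. *Cd79a* was at 1.70 TPM in replicate 8 (up to 1.41 in the other PFF mice) and *Ms4a1* at 0.120 (up to 0.104). *Cd79b* was at 0.692 (up to 1.92). The T cell markers *Cd3d*, *Cd3e* and *Cd3g* did not pass the filter either, and *Cd3e* reached at most 0.425 TPM in PFF mice. *Pdcd1*, which encodes the checkpoint receptor PD-1 of activated lymphocytes, lay between 0.644 and 3.76 TPM (median 1.38) in PFF mice and between 0.131 and 1.6 TPM (median 0.577) in monomer mice (log2 fold change 1.35, SE 0.337, edgeR adjusted p = 0.00972). These immune genes were picked after their values were seen.

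Cholesterol synthesis and uptake genes had a median near 0 over all mice and opposite medians in the batches, at -0.24 within batch 1 and 0.20 within batch 2, with 4 of 31 above 0 in batch 1 and 24 of 31 in batch 2. *Ngfr*, the p75 neurotrophin receptor, was called higher (log2 fold change 0.68, SE 0.191, edgeR adjusted p = 0.0227), with -0.46 within batch 1 and 1.27 within batch 2.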
